A study of Homo sapiens with 10 samples.

Results

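The genes described here are the protein-coding genes of human chromosome 19 whose RefSeq symbols are ZNF followed by a number. There are 240 of them among 19974 protein-coding genes of chromosomes 1 to 22 and X. They were picked out by symbol and chromosome alone, and no measured value enters that rule. The members were nonetheless chosen with earlier results of these data known. Each gene was taken with 1 kb added at both ends, and its value in a library is the percent of that stretch that lies under DRIP peaks. DRIP-seq uses the S9.6 antibody to pull down RNA-DNA hybrids (R-loops), the structures that form when a nascent transcript pairs again with its DNA template. The cells were U2OS, an osteosarcoma line, and the labels give no treatment. Mutant libraries carried TDP1 H493R, labelled SCAN1 after spinocerebellar ataxia with axonal neuropathy. They are 2 libraries of SCAN1#1, 1 from each of experiments 1 and 2, and 1 library of SCAN1#2 from experiment 2. They are set against WT U2OS, with 1 library from each experiment. TDP1 removes trapped topoisomerase 1 from DNA ends. The replicate number of a library is its experiment. Antibody lots differed between the experiments, so lot and experiment cannot be told apart. The labels do not say whether the replicates were separate cultures, so p-values measure only the spread between these libraries, nor whether each SCAN1 line is 1 clone.

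Most ZNF genes of chromosome 19 encode zinc finger proteins of the KRAB family. The KRAB domain recruits TRIM28 (KAP1), which brings in the methyltransferase SETDB1 and HP1 proteins to lay down repressive chromatin, and the finger array chooses the DNA sequence, often that of a transposable element. The family grew by tandem duplication, so its genes stand in clusters of related copies. ZNF274, itself a member, is known to bind at the 3' ends of many ZNF genes, where the repeated finger exons carry heterochromatin.

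Promoters of members with and without peaks at their starts are shown first, because these 2 kinds of start differed in their median number of CpG pairs. Each is the RefSeq window on GRCh38.p14 from 250 bases before to 50 bases after a listed start, 5′ to 3′ on the gene's own strand, and the capitals mark CpG pairs. The first 4 windows lay within 1 kb of peaks in all 5 libraries. The last 2 belong to genes whose starts had no peak in any library.
ZNF580 promoter, chr19:55640752-55641051, plus strand: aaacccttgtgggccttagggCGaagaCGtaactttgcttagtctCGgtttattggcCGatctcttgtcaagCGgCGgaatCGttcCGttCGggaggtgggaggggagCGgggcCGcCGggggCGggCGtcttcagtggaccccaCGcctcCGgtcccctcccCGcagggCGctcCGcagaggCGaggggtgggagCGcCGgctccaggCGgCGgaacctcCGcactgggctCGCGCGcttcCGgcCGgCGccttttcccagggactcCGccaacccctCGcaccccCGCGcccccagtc
ZNF574 promoter, chr19:42075916-42076215, plus strand: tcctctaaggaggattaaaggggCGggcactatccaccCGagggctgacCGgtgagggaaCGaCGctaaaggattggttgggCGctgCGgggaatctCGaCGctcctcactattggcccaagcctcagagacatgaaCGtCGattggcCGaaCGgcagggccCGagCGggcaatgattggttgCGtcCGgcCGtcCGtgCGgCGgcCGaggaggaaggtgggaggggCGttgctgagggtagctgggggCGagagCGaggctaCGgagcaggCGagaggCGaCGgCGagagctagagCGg
ZNF146 promoter, chr19:36214856-36215155, plus strand: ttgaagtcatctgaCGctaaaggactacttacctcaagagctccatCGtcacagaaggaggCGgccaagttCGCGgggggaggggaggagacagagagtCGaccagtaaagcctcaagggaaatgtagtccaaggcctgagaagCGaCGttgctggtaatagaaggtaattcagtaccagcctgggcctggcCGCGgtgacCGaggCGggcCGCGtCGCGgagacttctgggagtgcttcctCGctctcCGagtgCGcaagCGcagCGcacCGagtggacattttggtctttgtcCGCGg
ZNF274 promoter, chr19:58182811-58183110, plus strand: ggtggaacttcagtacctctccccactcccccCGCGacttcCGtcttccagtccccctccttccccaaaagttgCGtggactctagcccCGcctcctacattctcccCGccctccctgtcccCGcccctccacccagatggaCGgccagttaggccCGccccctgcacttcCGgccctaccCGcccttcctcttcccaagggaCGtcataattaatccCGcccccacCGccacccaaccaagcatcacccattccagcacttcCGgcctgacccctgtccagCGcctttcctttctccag
ZNF91 promoter, chr19:23395422-23395721, minus strand: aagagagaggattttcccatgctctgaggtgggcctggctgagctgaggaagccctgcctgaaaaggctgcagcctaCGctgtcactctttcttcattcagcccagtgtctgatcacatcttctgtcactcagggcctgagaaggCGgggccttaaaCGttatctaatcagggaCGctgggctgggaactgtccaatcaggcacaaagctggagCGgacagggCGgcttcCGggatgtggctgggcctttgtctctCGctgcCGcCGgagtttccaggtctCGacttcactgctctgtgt
ZNF93 promoter, chr19:19900696-19900995, plus strand: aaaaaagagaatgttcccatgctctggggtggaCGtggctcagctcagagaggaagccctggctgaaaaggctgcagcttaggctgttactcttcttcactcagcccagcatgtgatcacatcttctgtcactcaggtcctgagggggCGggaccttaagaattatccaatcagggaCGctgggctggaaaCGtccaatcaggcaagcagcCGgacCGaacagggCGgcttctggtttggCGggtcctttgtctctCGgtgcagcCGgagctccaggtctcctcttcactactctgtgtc
The windows of ZNF580 and ZNF574 hold 35 and 31 CpG pairs, and those of ZNF146 and ZNF274 hold 24 and 16. The windows of ZNF91 and ZNF93, both repressors of transposable elements, hold 11 and 10. The ZNF574 window belongs to the second of its 2 listed starts.

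The chromosome 19 ZNF genes were on average less covered by peaks than the other genes of their chromosome. All lists were first cut to the 63456 peaks of strongest -log10 p, the length of the shortest list. The mean percent covered over the 240 members was 6.93 and 5.89 in SCAN1#1 replicates 1 and 2, 4.77 in SCAN1#2 replicate 2, and 5.35 and 4.83 in WT replicates 1 and 2. The mean of SCAN1 was 5.86 ± 1.08 (SD, n = 3) and that of WT 5.09 ± 0.372 (SD, n = 2), a difference within the spread of the SCAN1 libraries. The other 1211 chromosome 19 genes averaged 11.7% to 19.2% over the 5 libraries, the 237 ZNF genes of other chromosomes 6.91% to 9.28%, and the remaining 18286 genes 6.22% to 8.46%. In each library the members' mean was the lowest of these 4 sets. Their median, 0.943% to 1.99%, was not: the remaining genes had a median of 0.63% to 1.13% and were lower in every library. The experiments differed in how many of the strongest peaks fell on chromosome 19, with 8.29% and 4.85% of the list in SCAN1#1 replicates 1 and 2, 4.93% in SCAN1#2 replicate 2, and 7.51% and 4.98% in WT replicates 1 and 2. Libraries are therefore also compared within experiments. The gap to the chromosome 19 neighbours varied with gene length. Among genes under 10 kb, members averaged 14.9% to 24.8% and other chromosome 19 genes 17.6% to 26.0%, while a peak was more frequent over the 28 members (70.7% against 58.7%, means over the libraries). Among genes of 10 to 20 kb the ranges were 5.13% to 7.77% and 10.1% to 19.8%. Among genes of 20 to 40 kb, members averaged 2.62% to 3.55% and other chromosome 19 genes 7.08% to 14.3%. For genes of at least 40 kb the ranges were 1.59% to 2.08% and 4.41% to 7.5%.

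The peaks over members were about as strong as peaks elsewhere. Between 288 and 407 peaks per list touched a member, which is 0.454% to 0.641% of a list. Their median fold enrichment, the authors' value over the caller's background, was 5.02 and 7.25 in SCAN1#1 replicates 1 and 2, 6.89 in SCAN1#2 replicate 2, and 5.44 and 6.44 in WT replicates 1 and 2. The medians of all other peaks were 4.85, 7.2 and 6.82 in the SCAN1 libraries and 5.26 and 6.44 in the WT libraries in the same order.

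A peak lay over 100 members in all 5 libraries, or 41.7%, against 55.2% of the other chromosome 19 genes, 59.1% of the ZNF genes elsewhere and 47.4% of the remaining genes. It lay over 53 members in no library, while 87 had a peak in 1 to 4 libraries. Of the members, 22.1% had no peak in any library, against 15.5% of the other chromosome 19 genes, 11.4% of the ZNF genes of other chromosomes and 23.4% of the remaining genes. The 53 members without a peak were not spread evenly: 34 of them stood in a single genomic cluster. Outside that cluster 9.36% of 203 members had no peak.

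Members were grouped into genomic clusters wherever neighbours lay within 1 Mb of each other and at least 5 joined. This gave 9 clusters, numbered along the chromosome, with 9 members outside them. Mean coverage over the 5 libraries was 1.49% in cluster 1 (2.8 to 2.9 Mb, 5 members), 4.01% in cluster 2 (7.1 to 9.8 Mb, 15 members) and 3.57% in cluster 3 (11.5 to 12.6 Mb, 25 members). It was 0.0577% in cluster 4 (19.7 to 24.1 Mb, 37 members). It was 0.652% in cluster 5 (34.7 to 35 Mb, 5 members), 2.88% in cluster 6 (36.2 to 37.8 Mb, 24 members) and 4.29% in cluster 7 (43.5 to 45.1 Mb, 24 members). Cluster 8 (51.6 to 53.6 Mb, 39 members) reached 2.37%, and cluster 9 (55.5 to 58.5 Mb, 57 members) 13.5%. Clusters 8 and 9, with the most members, thus stood far apart in coverage, and cluster 4, the next in size, was close to bare. Their genes also differed in length, with medians of 26278 bases in cluster 8, 12838 in cluster 9 and 34630 in cluster 4. The median was 35135.5 bases in cluster 6. Over the 240 members, length and mean percent covered had a Spearman rho of -0.276. The part of gene length in the cluster values was not tested.

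**Figure D1:**
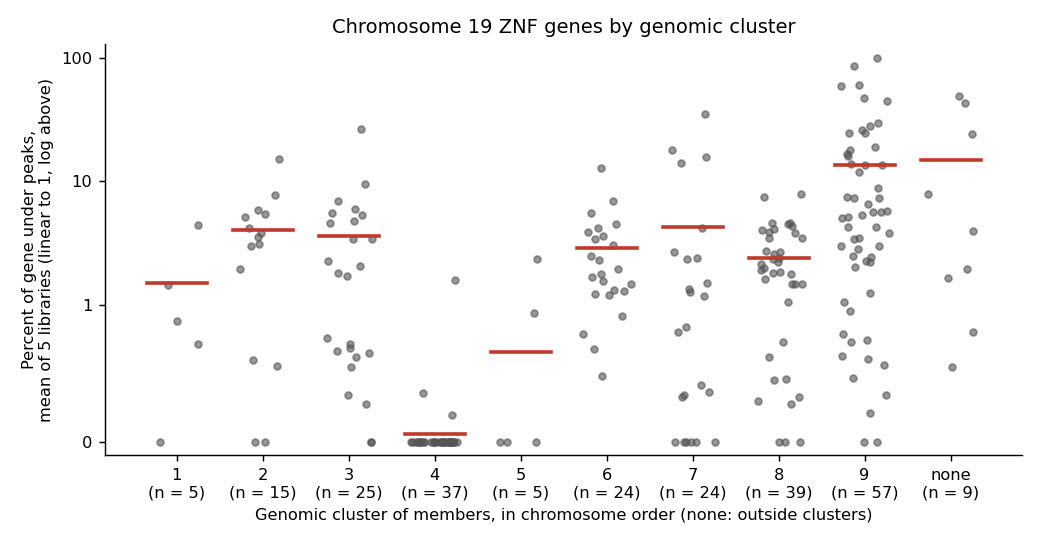
Mean percent of each member under peaks over the 5 libraries (y axis, linear up to 1 and logarithmic above) by genomic cluster in chromosome order (x axis). Each point is a gene and each red bar the mean of its cluster; 34 of the 37 genes of cluster 4 sit at 0, while cluster 9 averages 13.5% and reaches 100%.

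In cluster 4, only ZNF91, ZNF254 and ZNF85 had a peak at all in these lists. The span of 4.46 Mb held 6 and 5 peaks in SCAN1#1 replicates 1 and 2, 8 in SCAN1#2 replicate 2, and 3 and 5 in WT replicates 1 and 2, or 0.672 to 1.79 peaks per Mb. Every other cluster held at least 6.89 peaks per Mb in each library, and cluster 9 held 46.4 to 90.2. The bareness was not limited to the gene bodies: of the cluster 4 span outside members, 0.0679% to 0.33% was covered. The longest members without a peak were ZNF676, ZNF730, ZNF208, ZNF431 and ZNF43, and all 5 stood here. ZNF93, known to bind LINE-1 elements, was also at 0 in all 5 libraries.

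ZNF91, known to repress SVA retrotransposons, was the exception of cluster 4. It had 1 peak in each library, with 1.26% and 1.94% of the gene covered in SCAN1#1 replicates 1 and 2, 1.9% in SCAN1#2 replicate 2, and 1.34% and 1.45% in WT replicates 1 and 2. The joined region, chr19:23322530-23324340, lay inside the gene and away from its start and end, with fold enrichments of 6.17, 16.2 and 15.9 in the SCAN1 libraries and 8.16 and 14.4 in the WT libraries. No cluster 4 start with a known strand had a peak within 1 kb in any library, out of 29 genes.

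The promoters of cluster 4 shared sequence with each other more than those of other clusters did. A median of 43.9% of the 12-base words of a cluster 4 window occurred in the window of another cluster 4 gene, against 13.3% in cluster 3 and at most 4.5% in clusters 1, 2 and 5 to 9. The sources used here do not state how reads that match several places were treated, and the inputs are not analysed here. The part that shared sequence plays in the lack of peaks was not tested.

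Cluster 9, at the end of the long arm, carried 7 of the 10 most covered members. A run of 7 neighbours, ZNF628, ZNF579, ZNF524, ZNF865, ZNF784, ZNF581 and ZNF580, fell within 169 kb at its first edge and averaged 83.1% and 57.8% in SCAN1#1 replicates 1 and 2, 48.8% in SCAN1#2 replicate 2, and 67.8% and 44.4% in WT replicates 1 and 2. The other 50 members of cluster 9 averaged 9.19%, 8.55% and 6.12% in the SCAN1 libraries and 4.96% and 6.13% in the WT libraries. That is still above the 2.71% to 3.4% of all members outside cluster 9 in each library. This split was chosen after the values were seen.

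ZNF580 was covered to 100% in every library by 1 broad peak of 33.0 to 55.1-fold enrichment. The neighbouring ZNF581, whose span contains ZNF580, was covered to 100% and 80.4% in SCAN1#1 replicates 1 and 2, 76.6% in SCAN1#2 replicate 2, and 100% and 71.2% in WT replicates 1 and 2. These 2 genes share their peak, so they are not separate observations. Of the 240 member windows, 77 overlapped that of another protein-coding gene.

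The remaining most covered members were ZNF628, ZNF524, ZNF526, ZNF865, ZNF784, ZNF574, ZNF428 and ZNF551. ZNF526 was covered to 67.8% and 49.7% in SCAN1#1 replicates 1 and 2, 30.3% in SCAN1#2 replicate 2, and 50.6% and 48.4% in WT replicates 1 and 2. Here the groups overlapped, and the lowest library was SCAN1#2. ZNF574 was covered to 58.5%, 43.9% and 31.7% in the SCAN1 libraries and 47.1% and 35.2% in the WT libraries, again overlapping. ZNF574 also held the strongest member peak of SCAN1#2 replicate 2 and of WT replicate 2, at 68.7-fold and 58.5-fold. Within 1 kb of its inner start, whose promoter is printed above, 100% of bases were covered in every library, but around its outer start only SCAN1#1 replicate 1 had a peak.

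ZNF567 showed the same arrangement. Its outer start had no peak within 1 kb, with 18 CpG pairs in the window, while 60.3% of the bases around its inner start were covered on average, with 35 CpG pairs. ZNF114, which lies outside the clusters, gave the strongest member peak of SCAN1#1 replicate 2 at 96.5-fold. Its strongest peak reached 37.8-fold in SCAN1#1 replicate 1 and 43.5-fold in SCAN1#2 replicate 2, and 11.4-fold and 15.9-fold in WT replicates 1 and 2. The fold enrichments of the 3 SCAN1 libraries were thus all higher, but these are each list's own values and the difference was not tested. Coverage of ZNF114 overlapped between the groups, at 42.8%, 28.7% and 17.2% in the SCAN1 libraries and 12.4% and 20.5% in the WT libraries.

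Along the gene, peaks of members gathered at the start and thinned towards the end. Strand and start were known for 210 members. Each gene was cut into 10 equal parts in the direction of transcription. The mean covered percent over the 5 libraries was 11.5 in part 1, 5.76 in part 5 and 3.89 in part 10. The other chromosome 19 genes had 19.8% in part 1, 14.9% in part 5 and 18.9% in part 10, a rise at the end that the members did not have. ZNF genes of other chromosomes had 16.9%, 5.91% and 7.22% in the same parts, and the remaining genes 11.6%, 6.46% and 7.54%. Median gene length was 23130.5 bases over all 240 members and 12798 over all 1211 other chromosome 19 genes. The part of length in these values was not tested.

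Within 1 kb of the gene end, 5.88% and 3.64% of member bases were covered in SCAN1#1 replicates 1 and 2, 3.03% in SCAN1#2 replicate 2, and 4.55% and 3.51% in WT replicates 1 and 2. The range for the other chromosome 19 genes was 15.1% to 25.4%. It was 5.85% to 9.63% for the ZNF genes of other chromosomes and 6.39% to 10.1% for the remaining genes. A peak touched the end window of 8.1% to 13.3% of members and of 31.3% to 47.4% of the other chromosome 19 genes. For the ZNF genes of other chromosomes this was 14.4% to 23.1%, and for the remaining genes 14.6% to 21.0%. Of the members' own peak bases, 23.5% to 28.9% lay within 1 kb of a listed start, 6.03% to 9.48% near the end and 64.7% to 67.2% in between. These stretches made up 7.01%, 6.3% and 86.7% of the members' length. The share near the end was 15.9% to 16.6% for the other chromosome 19 genes. It was 7.3% to 10.2% for the ZNF genes of other chromosomes and 8.44% to 11.4% for the remaining genes, which overlap the members' range. The end stretch made up 8.28%, 4.61% and 2.67% of length in these 3 sets, so the shares of peak bases are not like measures between sets. These are counts over genes that share libraries, given without a test.

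The start peak of members lay further downstream than that of other ZNF genes. Its highest bin of 250 bases was centred 875 bases after the start in all 3 SCAN1 libraries, with 19.3% and 19.2% of bases covered in SCAN1#1 and 19.5% in SCAN1#2. In WT replicate 1 it was centred at 625 bases with 13.5%, and in WT replicate 2 at 875 bases with 17.9%. ZNF genes of other chromosomes peaked at 375 bases in all 5 libraries, with 27.2% to 32.8% covered, as did the remaining genes of other chromosomes, with 17.6% to 21.9%. The other chromosome 19 genes peaked at 375 or 625 bases. Restricting the sets to genes with 1 listed start, of which 175 are members, left the positions of the members and of the ZNF genes elsewhere in place. An opposite-strand start of another gene lay within 1 kb of the start of 49 of the 210 members.

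**Figure D2:**
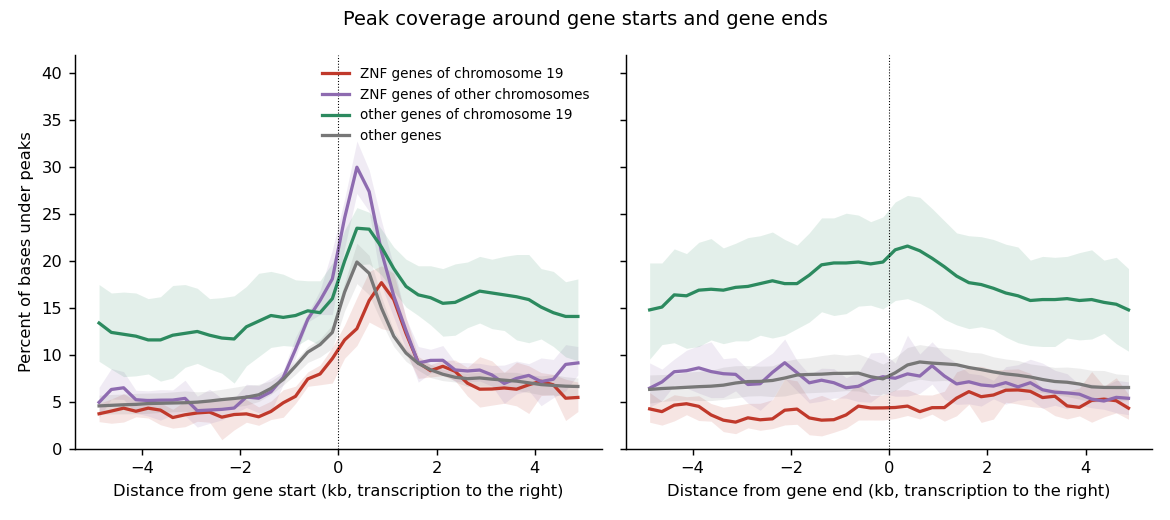
Percent of bases under peaks (y axis) by distance from the gene start (left) and gene end (right) in kb, with transcription running to the right, for 4 sets of protein-coding genes. Lines are means and bands the range of the 5 libraries; the red line of the chromosome 19 ZNF genes peaks later than the others at the start and is the lowest within 1 kb of the end.

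A start peak in all 5 libraries was found for 43 of the 210 members, and none in any library for 101. Counted by listed start, 51 of 261 member windows had a peak within 1 kb in all 5 libraries and 124 in none. Over all protein-coding genes these counts were 5012 and 12091 of 22156 windows. In single libraries 32.9% to 41.0% of members had a start peak, against 32.1% to 37.2% of the remaining genes. The end was covered in all 5 libraries in 11 members and in none for 169, counts not made for the other sets. Among those 11, the end windows of ZNF580, ZNF628, ZNF880 and ZNF324 reach over the start of a neighbouring gene, ZNF581, NAT14, ZNF528 and ZNF446, so an end peak there can belong to either gene. The ends of ZNF526, ZNF784 and ZNF787 were covered to 91.4%, 75.1% and 67.4% on average with no other listed start within 1 kb. The same held for ZNF653, ZNF865, ZNF428 and ZNF560, with 54.1%, 47.3%, 43.1% and 6.36% covered.

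Members whose starts carried peaks had more CpG pairs in their promoters. The 51 promoter windows with a peak within 1 kb in all 5 libraries held a median of 25 CpG pairs and 64% G or C, and the 124 windows with none held 17 and 58%. Across the 210 members, the highest CpG count of a gene's windows and its mean percent covered had a Spearman rho of 0.481, given as a description since neighbours share peaks and base composition. The 30 windows of cluster 4, all without a peak, count among the 124, and 22 of them held 9 to 14 CpG pairs. Against all other protein-coding genes at like CpG counts, members were lower in 3 of 5 classes. The bare windows of cluster 4 lower the member values in the classes they fall in. The 35 windows of other members with 9 to 14 CpG pairs had 12.8% of surrounding bases covered. The 17 member windows with 5 to 9 CpG pairs had 3.05% of surrounding bases covered, against 6.61% in the others. The 95 with 10 to 19 had 8.85% against 14.7%, and the 106 with 20 to 29 had 12.4% against 21.5%. The 38 with 30 or more had 31.6% against 21%, and the 5 with 0 to 4 had 16.1% against 2.45%. Of those 38 windows 8 had no peak in any library, and of those 5 windows 1 had a peak in all 5 libraries.

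Starts of cluster 4 were bare at CpG counts where other members had peaks. Its 30 windows had a median of 10 CpG pairs, the lowest of the clusters. Of the 22 cluster 4 windows with 9 to 14 CpG pairs, 0 had a peak within 1 kb in any library, whereas 20 of the 35 windows of other members in that range did. The limits of 9 and 14 were taken from the middle of the cluster 4 windows after they were seen.

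**Figure D3:**
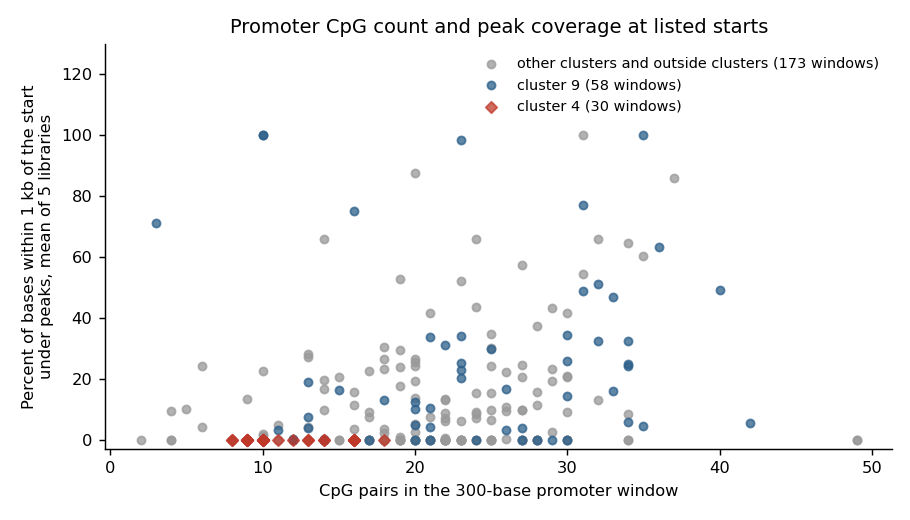
Percent of bases within 1 kb of a listed start under peaks, mean of 5 libraries (y axis), against the number of CpG pairs in the 300-base promoter window (x axis), one point per window. The 30 windows of cluster 4 (red) all lie at 0, including at CpG counts where windows of cluster 9 (blue) and other members (grey) are covered.

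Short motifs were searched on both strands of the 300-base windows, and no motif contains another. CCGGAAG, the core bound by ETS factors, was in 39.8% of member windows and 12.8% of all promoter windows. It was in 73.3% of cluster 4 windows, and in 43.1% of member windows with a peak in all 5 libraries and 41.9% of those without any. All 51 windows with a peak in all 5 libraries lay outside cluster 4, where 31.9% of the 94 windows without a peak held it. ATGGCG, the core of the YY1 motif, was in 16.9% and 13.1% of member and all windows, and TATAAA in 2.68% and 9.46%. Runs of GGGG on the gene's strand were in 77% of member windows and 81.1% of all windows. In cluster 4 they stood on the gene's strand in 96.7% of windows and on the other strand in 30%.

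Members with known roles ranged from bare to well covered. ZNF274, the member that binds ZNF gene ends, was covered to 23.1% and 20.4% in SCAN1#1 replicates 1 and 2, 13.9% in SCAN1#2 replicate 2, and 9.92% and 12.9% in WT replicates 1 and 2. Its 3 SCAN1 values were all higher than both WT values, but the difference of 7.73 points had an adjusted p of 1.0 in limma. On average 75.1% of the bases at its start and 0% at its end were covered. ZNF146, a finger-only protein overexpressed in some carcinomas, had 12.4%, 8.19% and 16.7% in the SCAN1 libraries and 13.4% and 13.95% in the WT libraries, with 66.0% of its start covered.

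ZNF180 and ZNF544 were covered at the start as well, by 54.3% and 48.9% on average, and at the end by 0%. ZNF536, a repressor of neuronal differentiation and a very long gene, had 9 and 22 peaks in SCAN1#1 replicates 1 and 2, 17 in SCAN1#2 replicate 2, and 11 and 22 in WT replicates 1 and 2, none of them within 1 kb of its start or end. ZNF224, a KRAB repressor, had no peak in any library. ZNF175 had a single peak, in SCAN1#1 replicate 1. ZNF432 had 1 peak in each SCAN1 library and none in WT, covering 1.77%, 1.34% and 4.93% of the gene in the SCAN1 libraries. These peaks did not join into a region shared by the 3 libraries. ZNF382 had 0% covered in the 3 SCAN1 libraries and 0.896% and 1.49% in the WT libraries, which shared a region there. ZNF331, an imprinted gene, had 2.56%, 3.03% and 1.66% in the SCAN1 libraries and 1.19% and 0.567% in the WT libraries. ZNF536, ZNF224, ZNF175, ZNF432, ZNF382 and ZNF331 all averaged less than 2% and were not tested.

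SCAN1 was compared with WT in limma over all 8472 protein-coding genes that averaged at least 2%, of which 110 were members. The last member above that limit was ZNF667 with 2.00% and the first below it ZNF845 with 1.97%. No gene was called in either direction at a Benjamini-Hochberg adjusted p of 0.05, so 0 of 110 members were called higher and 0 lower, against a background of 0% in each direction. At an unadjusted p of 0.05, limma gave 0 members higher and 1 lower, against 1.94% and 1.55% of all genes tested. With the experiment as a block, 4 members were higher and 3 lower at that unadjusted threshold, against 3.52% and 2.6% of all genes, and none passed the adjusted one.

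On the group means, more members were higher than lower in SCAN1, with no gene passing the test, but the 2 SCAN1 lines differed in this. Of the 110, 71 were higher in SCAN1, 38 lower and 1 equal, and the median difference was 0.77 percentage points, against 0.08 over all genes tested. Of all 8472 genes tested, 4360 were higher in SCAN1. Within experiments, SCAN1#1 was higher in 68 members and lower in 39 in experiment 1, and higher in 73 and lower in 35 in experiment 2. Over all genes tested, SCAN1#1 was higher in 4256 and lower in 4014 in experiment 1. In experiment 2 it was higher in 5084 and lower in 3126. The medians of SCAN1#1 were 1.43 and 1.48 points over the members, against 0.02 and 0.795 over all genes tested. SCAN1#2 was higher in 49 members and lower in 57, with a median of -0.09 points. Over all genes tested it was higher in 3855 and lower in 4335, with a median of -0.08 points. The single differences ran from -8.15 to 26.1 points and 95 of them were within 5 points. Leaving out SCAN1#1 replicate 2 gave a median of 0.50, and leaving out SCAN1#2 replicate 2 gave 1.40, and over all genes tested the medians without single libraries ran from -0.31 to 0.93. Without WT replicate 1 the members' median was 0.58 and that of all genes 0.93, so the order turned. The groups did not overlap, with SCAN1 above, in 14 members, or 12.7%, where 9.48% of all genes tested did the same. They did not overlap with SCAN1 below in 7 members, or 6.36%, against 6.86% of all. In experiment 2 both SCAN1 lines were set against WT replicate 2, so the 3 comparisons within experiments are not separate observations. SCAN1 was higher in all 3 comparisons within experiments in 23 members, or 20.9%, against 19.4%. It was lower in all 3 in 12 members, or 10.9%, against 15.8%. These shares lie near the background. SCAN1#1 was above WT in both experiments and SCAN1#2 below it in 24 members, or 21.8%, against 13.2% of all genes tested, and the reverse held in 5 members, or 4.55%, against 4.89%.

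On the group means and in SCAN1#1, the cluster with the highest coverage also had the widest gap to WT of the 9 clusters. In SCAN1#2, clusters 1 and 2 differed from WT by more, at 0.97 and -1.76 points. The 9 members outside clusters differed by 6.62 and 2.77 points in SCAN1#1 and -2.89 points in SCAN1#2. Members of cluster 9 averaged 18.3% and 14.6% in SCAN1#1 replicates 1 and 2, 11.4% in SCAN1#2 replicate 2, and 12.7% and 10.8% in WT replicates 1 and 2. Within experiments the differences were 5.58 and 3.77 points for SCAN1#1 and 0.53 points for SCAN1#2, and the mean difference was 2.99 points. Without SCAN1#1 replicate 1 it was 1.23, and without SCAN1#2 replicate 2 it was 4.67. The 47 other protein-coding genes in the cluster 9 span were higher by 2.05 and 2.73 points in SCAN1#1 and 1.25 points in SCAN1#2, but some of them overlap members and share their peaks. The 39 without a ZNF symbol and apart from members' windows were higher by 0.33 and 0.89 points in SCAN1#1 and 0.24 points in SCAN1#2.

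Clusters 2 and 3 were lower and cluster 8 higher in all 3 comparisons, by small amounts. Cluster 2 differed by -0.75 and -1.13 points in SCAN1#1 and -1.76 points in SCAN1#2, and cluster 3 by -0.27, -0.40 and -0.52 points in the same order. Cluster 8 differed by 0.42 and 0.95 points in SCAN1#1 and 0.48 points in SCAN1#2. Cluster 6 was also lower in all 3, by at most 0.34 points. With the lists as deposited the mean differences of clusters 3 and 6 were 0.14 and 0.08 points, so their direction turned. No test was made of clusters.

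**Figure D4:**
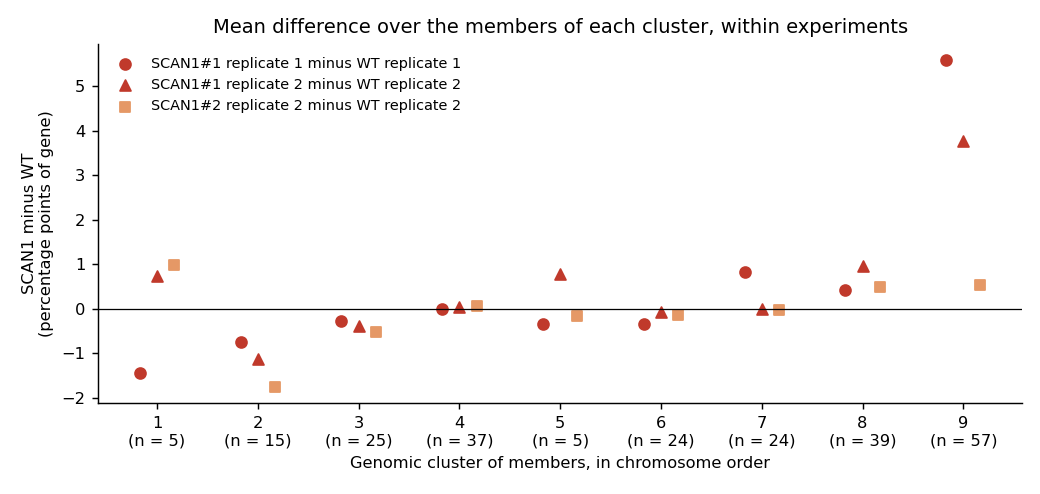
SCAN1 minus WT in percentage points of gene covered, averaged over the members of each genomic cluster (y axis), for the 3 comparisons within experiments (symbols), by cluster in chromosome order (x axis). Cluster 9 reaches 5.58 and 3.77 points in SCAN1#1 and 0.53 in SCAN1#2, and all other clusters stay within 2 points of 0.

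The members that were higher in SCAN1 in each comparison by the widest margin were ZNF628, ZNF579, ZNF552, ZNF584, ZNF549 and ZNF878, 5 of them in cluster 9. Since they were picked for this direction, and the comparisons of experiment 2 share WT replicate 2, their values are a description. ZNF628 was covered to 86.8% and 73.1% in SCAN1#1 replicates 1 and 2, 51.1% in SCAN1#2 replicate 2, and 51.3% and 37.1% in WT replicates 1 and 2. SCAN1#2 replicate 2 was thus below WT replicate 1 and above WT of its own experiment. The difference was 26.1 ± 13.2 points (SE, limma adjusted p = 1.0). On average 66.7% of its end window was covered, the stretch it shares with the start of NAT14.

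ZNF579 was covered to 38.0% and 30.02% in SCAN1#1 replicates 1 and 2, 29.2% in SCAN1#2 replicate 2, and 26.6% and 0% in WT replicates 1 and 2. The groups did not overlap, but the gap rested on the empty WT replicate 2: without it the difference was 5.80 points, and with all libraries 19.1 points. ZNF552 was covered to 18.9%, 11.2% and 7.91% in the SCAN1 libraries and 5.97% and 0% in the WT libraries, with no overlap. Its difference was 9.70 ± 4.01 points (SE, limma adjusted p = 1.0). ZNF584, ZNF549 and ZNF878 differed by 2.62, 3.54 and 5.02 points. For ZNF584 the difference was -1.65 points without WT replicate 2, and with the gene ends alone it was -4.03 for ZNF584 and -1.95 for ZNF549.

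The members lower in SCAN1 by the widest margin were ZNF414, ZNF808, ZNF837, ZNF799, ZNF700 and ZNF433. ZNF414 was covered to 3.36% and 0% in SCAN1#1 replicates 1 and 2, 4.81% in SCAN1#2 replicate 2, and 9.85% and 11.1% in WT replicates 1 and 2. The groups did not overlap, and its unadjusted p of 0.00798 in limma was the smallest of the 110 members, with an adjusted p of 1.0. With the lists as deposited its difference was 1.95 points instead of -7.77, so the direction depended on cutting the lists to one length, and without the added 1 kb it was -2.99. ZNF433 had no peak in the 3 SCAN1 libraries and covered 1.32% and 2.08% in WT. The other 4 differed by -1.78 to -4.05 points. ZNF837, at -4.05, differed by -0.98 points without WT replicate 1, and ZNF808 by 3.84 points with the gene ends alone.

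**Figure D5:**
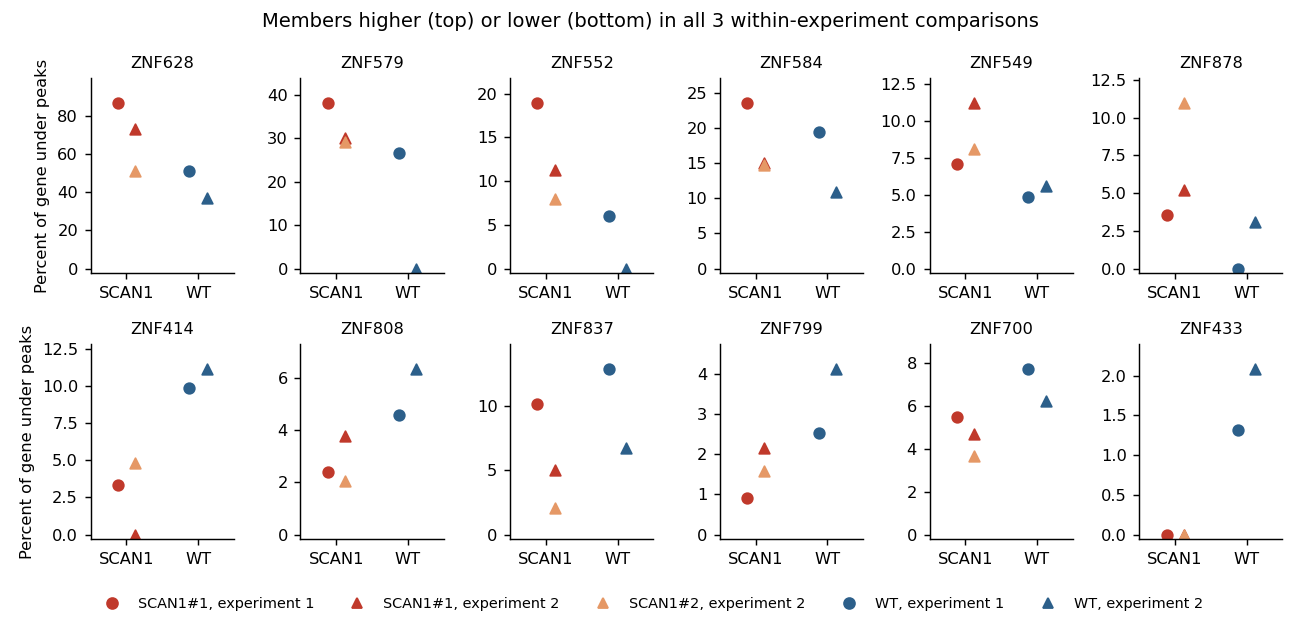
Percent of the gene under peaks (y axis, its own scale in each panel) in the 3 SCAN1 libraries (left) and the 2 WT libraries (right) for the 6 members higher (top) and the 6 lower (bottom) in all 3 comparisons by the widest margin. Circles are experiment 1 and triangles experiment 2; ZNF579 and ZNF552 are at 0 in WT replicate 2, and ZNF433 is at 0 in all SCAN1 libraries.

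Single regions were then counted. Peaks over members merged into 684 regions, where peaks sharing at least 1 base were joined. A peak in all 5 libraries was found in 94 regions, or 13.7%, against 13.8% of regions over all protein-coding genes. Of the 86 such regions over members of known strand, 53.5% lay at a start, against 12.1% of the 290 regions with a peak in 1 library. Their median widths were 1375.5 and 331 bases, and the part of width in these shares was not tested. Peaks in all 3 SCAN1 libraries and no WT library were found in 11 regions, or 1.61%, against 1.01% of all regions. Peaks in both WT libraries and no SCAN1 library were found in 13 regions, or 1.9%, against 1.59%. With the lists as deposited these counts were 18 and 9, so their order turned.

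The 11 regions with SCAN1 peaks alone lay in ZNF441, ZNF799, ZNF536, ZNF461, ZNF577, ZNF888, ZNF765, ZNF331, ZNF71, ZNF805 and ZNF552. Of these, the region of ZNF765 at chr19:53395852-53396515, near its start, had the strongest peaks, with 5.59-fold and 11.7-fold enrichment in SCAN1#1 replicates 1 and 2 and 16.9-fold in SCAN1#2 replicate 2. The 13 regions with WT peaks alone held 2 at the end of a gene, in ZNF414 and ZNF625, and 10 inside genes. ZNF536 had 1 region of each kind. ZNF808 held 2 of the WT regions.

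Genes that work with the KRAB proteins were read beside the members. Of 14 listed partners 10 were tested and none passed in either direction. TRIM28, the corepressor itself and also on chromosome 19, was covered to 73.1% and 77.7% in SCAN1#1 replicates 1 and 2, 77.9% in SCAN1#2 replicate 2, and 71.7% and 76.6% in WT replicates 1 and 2, a narrow range. SETDB1 had 27.0%, 25% and 18.9% in the SCAN1 libraries and 31.1% and 14.7% in the WT libraries, which overlapped. Of 10 osteoblast and mesenchymal genes 8 had a peak in all 5 libraries, and of 10 genes of other lineages 7 had none in any library. Among the remaining genes these shares were 47.4% and 23.4%. COL1A1, a collagen gene of bone, had 26.4%, 35.9% and 9.09% in the SCAN1 libraries and 66.7% and 55.8% in the WT libraries, a difference of -37.45 points. THY1 differed by -28.76 points and TGFBI by 12.43 points, and the groups of these 3 genes did not overlap, each with a limma adjusted p of 1.0. Their part in the members' values was not tested.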

How the data were processed

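Peak lists of 5 DRIP libraries were used. No input was analysed here. Per the submitters' processing notes, without roles, MACS3 3.0.0a6, BWA 0.7.17-r1188, deepTools 3.5.1, SAMtools 1.9 and FastQC 0.11.5 were used with hg38. Per the layout of the deposited lists, each peak has a score, a fold enrichment (ratio), a -log10 p, a -log10 q and a summit offset. The deposited score equals 10 times the deposited -log10 q, rounded down, in at least 99.974% of peaks. The sources used here state no read depth.

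Lists were cut to the 63456 peaks of strongest -log10 p. Percent covered per gene, on RefSeq GRCh38.p14 coordinates, was tested with limma 3.58.1 in R 4.3.3 (lmFit, eBayes with trend, Benjamini-Hochberg) over genes averaging at least 2%, tested on simulated data. Both SCAN1 lines formed 1 group. In the labels a replicate number is that of the experiment, so numbers pair the samples: deviations from group means correlated by 0.612 for SCAN1#1 with WT in experiment 1, and by 0.325 and 0.47 for SCAN1#1 and SCAN1#2 with WT in experiment 2. Strand and starts came from RefSeq promoter windows, which matched 210 of 240 members. Planned protein features (KRAB domain, finger number) were not analysed here. The rule named members past the threshold, the 10 most covered, 6 per direction and the top of each cluster. It also named the strongest peak of each library, the longest without peaks and members of known role. Of these, ZNF57, ZNF358, ZNF599 and ZNF528, the tops of clusters 1, 2, 5 and 8, are not described, nor is ZNF541. ZNF567, ZNF765, ZNF787, ZNF880, ZNF324 and ZNF560 fall outside this rule and were chosen after their values were seen. Members and lists were chosen with earlier results of these data known. Python 3.11.15, numpy 2.4.6, pandas 2.3.3 and matplotlib 3.10.9 were used.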

Additional observations from a re-analysis of the deposited data

Results flagged for a closer look

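Of the 10 most covered members, 7 went opposite ways in the 2 SCAN1 lines, with SCAN1#1 above WT in both experiments and SCAN1#2 below it. Among the members named in the report, ZNF524 and ZNF784 did so by at least 5 points in every comparison. For ZNF524, SCAN1#1 was 22.2 and 6.45 points above WT of the same experiment and SCAN1#2 differed from WT by -10.67 points. For ZNF784, SCAN1#1 was 14.4 and 8.32 points above WT and SCAN1#2 differed by -5.08 points. The difference between the lines was not tested. Over all genes tested the mean differences had the same signs, at 0.51 and 2.256 points for SCAN1#1 and -0.615 points for SCAN1#2. How often genes of like coverage went opposite ways in the lines was not tested. The 10 are not all separate observations. ZNF628, ZNF524, ZNF865, ZNF784, ZNF581 and ZNF580 stand in the same run of neighbours, and ZNF581 and ZNF580 share their peak. Among the 110 tested members, 24, or 21.8%, were above WT in both SCAN1#1 comparisons and below it in SCAN1#2, against 13.2% of all genes tested, and 5, or 4.55%, showed the reverse, against 4.89%.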

How the results depend on the processing

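Alternatives cover the lists as deposited, peaks with -log10 q of at least 5, other gene windows, log2(percent + 1), no filter, the replicate block and leaving out each library. No member was called under any limma alternative. Over all genes log2(percent + 1) called 4, and leaving out a library called 0 each time. The members' median difference was 0.79 points with the replicate block, 2.98 with gene ends only and 0.50 to 1.40 without single libraries. With the lists as deposited the mean coverage of members was 6.68%, the share with a peak 68.7%, the share of peak bases near the start 24.1% and in between 68.6%. With windows of 2 kb those shares were 38.9% and 52.2%. Regions with a peak in all 5 libraries numbered 39 with a reciprocal overlap of 50%, against 94. With the lists as deposited, the mean differences of clusters 2, 3, 6 and 8 were -0.35, 0.14, 0.08 and 0.96 points. Without single libraries, cluster 6 ranged from -0.31 to 0.07 and cluster 7 from -0.65 to 0.69, so neither has a settled direction, and cluster 9 from 1.23 to 4.67. ZNF584 turned to -4.03 points with gene ends only and to -0.27 without SCAN1#1 replicate 1, and without single libraries it ranged from -1.65 (WT replicate 2) to 6.89 (WT replicate 1). With gene ends only ZNF549 turned to -1.95 and ZNF808 to 3.84. ZNF414 turned to 1.95 with the lists as deposited. The cause was not tested. The replicate block changed no call. The sources used here state no read depth, so no counting error could be attached to a region, and with 3 SCAN1 and 2 WT libraries precision is limited by their number.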

Other observations

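ZNF symbols of chromosome 19 with a letter after the number fall outside the rule, and their values stood beside those of the members. Of 6 such genes, 2 were tested and none passed in limma. ZNF780B was covered to 11.4% and 10.5% in SCAN1#1 replicates 1 and 2, 9.69% in SCAN1#2 replicate 2, and 11.9% and 9.95% in WT replicates 1 and 2. ZNF324B had 2.85%, 4.23% and 0.765% in the SCAN1 libraries and no peak in WT. Among the regions over members, 29 had peaks in both libraries of experiment 1 and none of experiment 2, and 11 had peaks in all 3 libraries of experiment 2 and none of experiment 1. The order turned with the lists as deposited, to 13 and 37, and with peaks of -log10 q of at least 5, to 4 and 32.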
